A study of Mus musculus with 4 samples.

Results

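A set of 9 long noncoding RNAs (lncRNAs) is described here in MC38 cells, a mouse colon carcinoma line: the nuclear RNAs Neat1 and Malat1, and Gas5, Snhg1, Snhg3, Snhg5, Snhg6, Snhg8 and Snhg12, whose introns carry small nucleolar RNAs (snoRNAs). They were chosen by name, not by their values, as the rows of the gene table whose NCBI gene ID belongs to these symbols. All 9 of the 9 symbols were found among the 27179 genes of the table. Polyadenylated RNA of wild-type MC38 cells was sequenced with strand information in 4 conditions, with 1 library each: untreated cells in normoxia (20% oxygen), untreated cells in hypoxia (1.5% oxygen), cells given interferon-γ (IFN-γ, 5 ng/mL for 24 h) in normoxia, and cells given IFN-γ in hypoxia. The comparisons ask what low oxygen and the cytokine, each alone and together, did to the RNA of tumor cells. The dose and time are those given in the methods for most experiments. The model is 1 cell line with no replicate culture, so the variation between cultures of a condition was not measured. In bulk RNA of this kind, fewer cells that make an RNA and less of that RNA per cell cannot be told apart.

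Neat1 is the RNA scaffold of paraspeckles, nuclear bodies that form where it is transcribed and that hold RNA-binding proteins and certain RNAs. Malat1 is an abundant RNA of nuclear speckles, where splicing factors are stored, and both genes have been described as raised by low oxygen in other cells. The snoRNA host genes work differently. Their introns are trimmed to snoRNAs, which guide ribose methylation (box C/D type) or pseudouridylation (box H/ACA type) of ribosomal RNA, while the spliced exons of many hosts enter the cytoplasm and are destroyed by nonsense-mediated decay during translation. Many host transcripts begin with a C followed by a run of pyrimidines, as do the mRNAs of ribosomal proteins and translation factors (the TOP class, for terminal oligopyrimidine), whose use by ribosomes follows growth signals.

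The start sites of the hosts are shown because this class is defined by the first bases of its transcripts. RefSeq sequence of build GRCm38.p6 was given for 8 start sites of 7 of the 9 lncRNAs. Each line runs 5′ to 3′ from 50 bases before the annotated start to 40 bases from it on. Capitals mark a C followed by at least 4 pyrimidines where such a run began within 10 bases of the start.
Malat1, chr19:5802633-5802722, minus strand: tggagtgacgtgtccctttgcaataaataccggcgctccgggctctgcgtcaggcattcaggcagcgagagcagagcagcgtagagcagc
Gas5 start 1, chr1:161034551-161034640, plus strand: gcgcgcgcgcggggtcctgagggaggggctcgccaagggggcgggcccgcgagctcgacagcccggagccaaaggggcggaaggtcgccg
Gas5 start 2, chr1:161035116-161035205, plus strand: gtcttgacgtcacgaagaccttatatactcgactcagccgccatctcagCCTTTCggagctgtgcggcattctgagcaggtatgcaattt
Snhg1, chr19:8723437-8723526, plus strand: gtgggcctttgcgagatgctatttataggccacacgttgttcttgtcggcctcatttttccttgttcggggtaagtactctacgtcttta
Snhg3, chr4:132353647-132353736, minus strand: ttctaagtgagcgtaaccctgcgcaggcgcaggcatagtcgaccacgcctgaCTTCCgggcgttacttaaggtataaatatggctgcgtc
Snhg5, chr9:88522858-88522947, minus strand: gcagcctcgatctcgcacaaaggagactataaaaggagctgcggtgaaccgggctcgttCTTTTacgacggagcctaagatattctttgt
Snhg8, chr3:123508297-123508386, minus strand: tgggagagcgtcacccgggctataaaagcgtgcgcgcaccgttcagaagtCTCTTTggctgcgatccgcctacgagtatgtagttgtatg
Snhg12, chr4:132308628-132308717, plus strand: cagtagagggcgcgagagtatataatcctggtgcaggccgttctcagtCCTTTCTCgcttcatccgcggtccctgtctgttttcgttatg

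A run of this kind was present at 5 of the 8 start sites (the second start of Gas5, Snhg3, Snhg5, Snhg8 and Snhg12), against 30.7% of the 32851 mouse promoters in the same table. The letters TATAA or TATAT stood between 40 and 15 bases before the start at 4 of the 8 (the second start of Gas5, Snhg5, Snhg8 and Snhg12), against 4.68% of all promoters. ACGTG or GCGTG, the core letters to which hypoxia-inducible factors bind, occurred on either strand of the 300-base promoter at 6 of 8, against 43.8% of all promoters. TTCNNNGAA, the letters of the STAT binding element, occurred at 0 of 8, against 8.30%. These are matches of letters, and binding was not measured.

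The end of Malat1 is shown because the libraries were made from polyadenylated RNA. Its mature RNA is made by cleavage before a small tRNA-like RNA, mascRNA, and ends in a stretch of A encoded in the genome rather than in an added tail. The line below gives the 100 bases before mascRNA on the GENCODE M21 annotation of GRCm38, with capitals for a run of 12 A that ends 6 bases before mascRNA begins.
Malat1 end, chr19:5795982-5796081, minus strand: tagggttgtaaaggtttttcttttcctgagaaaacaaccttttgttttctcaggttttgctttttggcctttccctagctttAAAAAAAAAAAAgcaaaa

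Some of the snoRNAs that lie in host introns are shown with the parts that define the box C/D class. Capitals mark box C (TGATGA) and box D (CTGA), and the coordinates are those of GENCODE M21.
Snord47 in Gas5, chr1:161038082-161038158, plus strand: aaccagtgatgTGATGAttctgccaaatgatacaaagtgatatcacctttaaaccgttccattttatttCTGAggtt
Snord87 in Snhg6, chr1:9942463-9942549, minus strand: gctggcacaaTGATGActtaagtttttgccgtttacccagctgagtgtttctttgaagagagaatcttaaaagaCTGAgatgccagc
Snord99 in Snhg12, chr4:132310691-132310764, plus strand: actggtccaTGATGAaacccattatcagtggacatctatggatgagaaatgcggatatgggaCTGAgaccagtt

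The libraries held from 34302971 to 34537939 counts, a 1.007-fold range, so a floor of 3 counts stood at 0.0869 to 0.0875 CPM, the counts scaled to a common library total. Known targets of both stimuli moved in these libraries. All 8 of 8 known hypoxia genes were higher in hypoxia (log2 change from 0.74 for Vegfa to 2.14 for Car9) and all 6 of 6 known IFN-γ genes were higher with IFN-γ (from 1.70 for Cxcl10 to 5.20 for Gbp2). The label of an epithelial line was only weakly visible, since Cdh1 and Cdx2 had 0 counts in every library, Epcam and Krt18 had at most 2, and Krt8 ranged from 48 to 90. The 7 epithelial and colon markers together had 63 to 101 counts and 4 of the 7 never passed 3 counts. The 8 markers of immune, endothelial and erythroid cells had 128 to 171 counts in all, at most 96 for any of them (Lyz2), with Adgre1 and Hbb-bs at 0.

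The 9 lncRNAs differed widely in level. On the scale of CPM per kilobase of annotated exon, in untreated normoxic cells, Gas5 stood highest at 357, followed by Snhg1 at 115, Snhg8 at 105 and Snhg5 at 78.1. Malat1 followed at 23.0, Snhg6 at 18.0, Snhg12 at 15.8, Neat1 at 9.02 and Snhg3 at 2.63. Over the 4 libraries the levels of Snhg1 (95.05 to 115) and Snhg8 (90.6 to 105) overlapped, as did those of Snhg6 (15.5 to 18.2) and Snhg12 (13.0 to 15.8). Within each library, however, Snhg1 stood above Snhg8 and Snhg6 above Snhg12. The place of Neat1 depends on its isoform. Its annotated exon covers 20771 bases, and if every read came from the short polyadenylated transcript of 3004 bases its level would be 62.4 to 82.3.

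**Figure D1:**
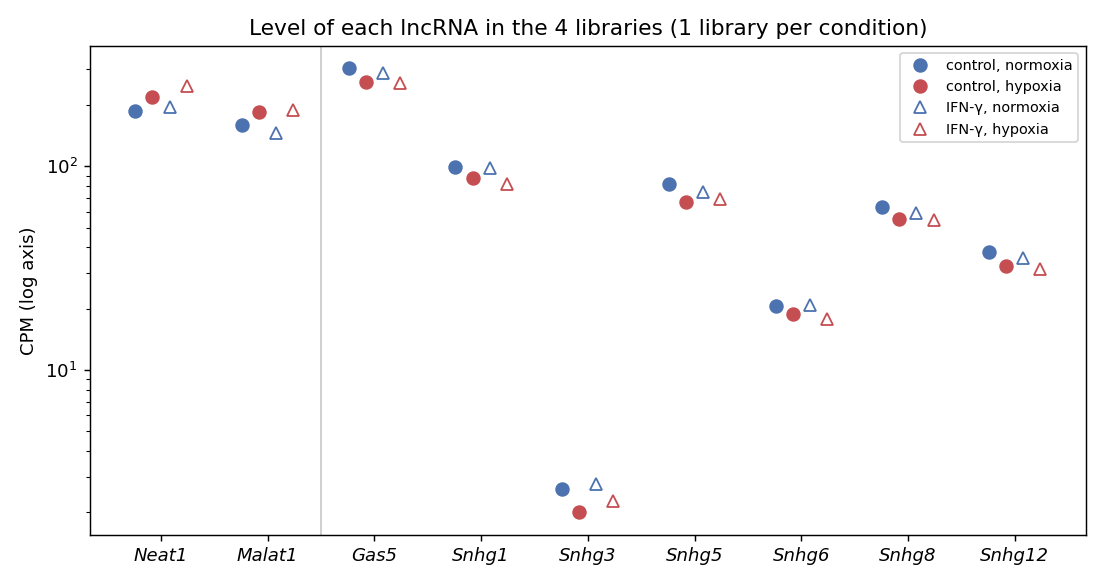
Level of each lncRNA in CPM (log axis, not divided by length) in the 4 libraries, 1 point per library. Neat1 and Malat1 were highest in the hypoxic libraries, and in all 7 host genes both hypoxic points lay below both normoxic points.

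In hypoxia Neat1 and Malat1 rose by 21.6% and 22.7%, and Gas5, Snhg1 and Snhg5 fell, with changes of -12.0%, -14.1% and -12.6%, while the estimates of the other 4 hosts were also below 0 and did not pass the test. By edgeR's quasi-likelihood test over 13580 genes with an additive model of oxygen and IFN-γ (Benjamini-Hochberg adjusted p under 0.05), 2 of 9 lncRNAs were higher, against 8.21% of all genes, and 3 of 9 were lower, against 6.83%. At an unadjusted p under 0.05 the number was 7 of 9, against 26.5% of all genes. With 1 library per condition, the only spread in this test is the departure from additivity, pooled over genes. That spread mixes any interaction of the stimuli with differences between cultures, and it says little about how variable a single lncRNA is.

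Neat1 (gene ID 66961, chr19:5824708-5845480, minus strand) had 6425 counts in untreated normoxic cells, 7569 in hypoxia, 6801 with IFN-γ in normoxia and 8508 with both stimuli. Both hypoxic libraries lay above both normoxic libraries, and the value with both stimuli was the highest of the 4. The hypoxia change of Neat1 was 0.28 on the log2 scale (standard error 0.0557, edgeR Benjamini-Hochberg adjusted p = 1.34e-05). Malat1 (72289, chr19:5795690-5802672, minus strand), its neighbor on the chromosome, had 5502, 6396, 5031 and 6498 counts in the same order. Here too the groups of high and low oxygen did not overlap, but the hypoxic values were nearly equal with and without IFN-γ. The hypoxia change of Malat1 was 0.30 (standard error 0.0575, edgeR Benjamini-Hochberg adjusted p = 9.65e-06).

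Gas5 (14455, chr1:161034601-161038539, plus strand), named for its accumulation in growth-arrested cells, had 10423 counts in untreated normoxic cells, 8989 in hypoxia, 9919 with IFN-γ and 8879 with both. Both hypoxic values lay below both normoxic values. Its hypoxia change was -0.18 on the log2 scale (standard error 0.0536, edgeR Benjamini-Hochberg adjusted p = 0.0068). Snhg1 (83673, chr19:8723487-8726326, plus strand), which holds 8 snoRNA genes in its introns as Gas5 does, had 3399, 3013, 3409 and 2830 counts. The normoxic libraries were almost equal and the hypoxic ones were lower. Its change was -0.22 (standard error 0.0638, edgeR Benjamini-Hochberg adjusted p = 0.00694). Snhg5 (72655, chr9:88521052-88522897, minus strand), with 2 snoRNA genes, had 2800, 2308, 2587 and 2392 counts. Its single-pair ratio was -0.28 without IFN-γ and -0.11 with it, and its additive change was -0.19 (standard error 0.0671, edgeR Benjamini-Hochberg adjusted p = 0.0299).

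The other 4 hosts had estimates of similar size and wider errors. Snhg8 (69895, chr3:123507552-123508336, minus strand), the host of Snora24, had 2171, 1896, 2031 and 1884 counts, with a hypoxia change of -0.15 (standard error 0.0706, edgeR Benjamini-Hochberg adjusted p = 0.144). Snhg12 (100039864, chr4:132308678-132311024, plus strand), which holds 4 snoRNA genes, had 1305, 1119, 1223 and 1075 counts, with -0.20 (standard error 0.0785, edgeR Benjamini-Hochberg adjusted p = 0.0613). Both genes were lower in each hypoxic library than in either normoxic one, and both had an unadjusted p under 0.05 that did not hold after adjustment over all genes. Snhg6 (73824, chr1:9942025-9944118, minus strand), the host of Snord87, had 708, 652, 720 and 613 counts, with -0.17 (standard error 0.0936, edgeR Benjamini-Hochberg adjusted p = 0.223). Snhg3 (399101, chr4:132351933-132353686, minus strand), the host of Snora73a and Snora73b, had 89, 69, 95 and 78 counts, with -0.32 (standard error 0.241, edgeR Benjamini-Hochberg adjusted p = 0.421). The estimate of Snhg3 was the lowest of the 9 and also the least precise.

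As a group, the 7 hosts had a median hypoxia change of -0.19 and a range of -0.32 to -0.15, beside a median of 0.0047 over all 13580 genes, of which 48.8% were below 0. In all 7 of 7 both hypoxic libraries lay below both normoxic libraries on normalized CPM, a pattern seen in 24.4% of all genes. In Neat1 and Malat1 both lay above, as in 24.1% of all genes. The calls of the hosts depended on how the spread was estimated. With DESeq2's Wald test on the same model, Neat1 and Malat1 passed and 0 of the 7 hosts did, though Snhg3 was given no adjusted p there. Over all genes that test called 362 higher and 214 lower. With an edgeR fit of oxygen alone, in which IFN-γ counts as spread, 0 of 9 lncRNAs passed. Over all genes that fit called 150 higher and 26 lower. In it 7 of 9 lncRNAs had an unadjusted p under 0.05, and the share of all genes at that level was not counted.

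**Figure D2:**
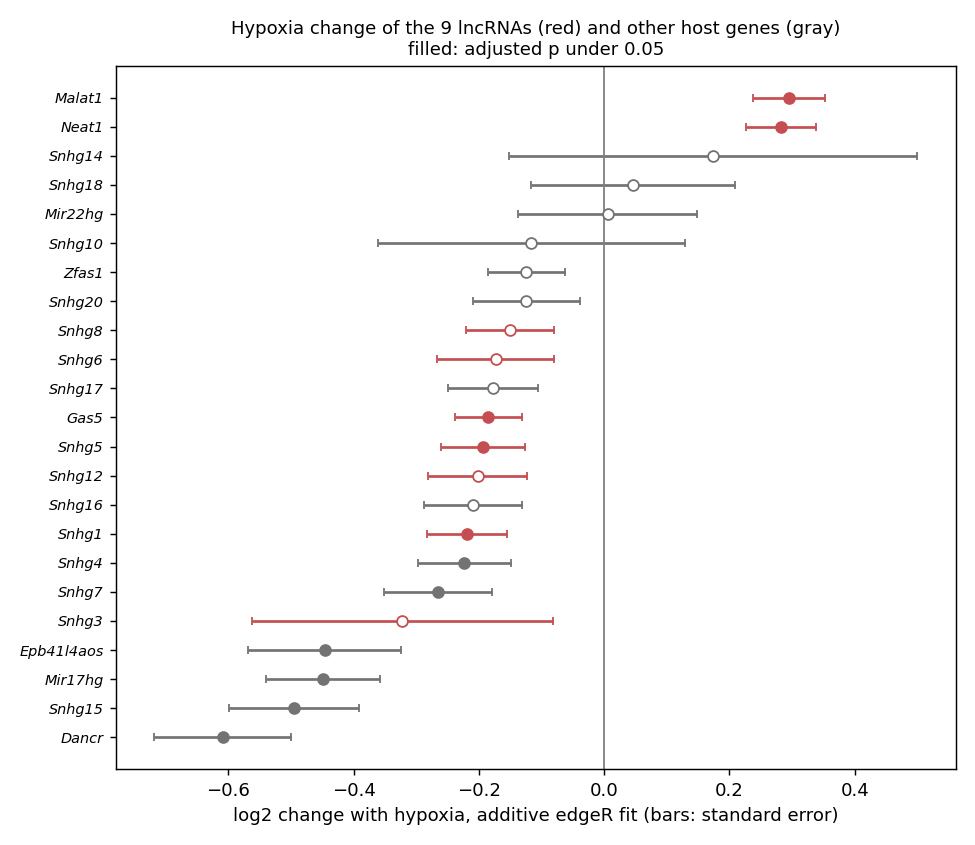
Hypoxia change (log2, additive edgeR fit) of the 9 lncRNAs and of other host genes, with 1 standard error to each side and filled points for an adjusted p under 0.05. Neat1 and Malat1 lie near 0.3 and the 7 hosts between -0.32 and -0.15, and Snhg9 is left out of the plot because of its wide error.

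Each pair of libraries was also compared on its own, with exact 95% intervals that cover counting error and not variation between cultures. Of the 9 lncRNAs, 0 reached a log2 ratio of 0.5 in either direction in any of the 4 pairs, while among all genes 7.78% were higher and 4.19% lower past this size in hypoxia without IFN-γ, and 7.97% and 3.85% in hypoxia with it. For IFN-γ these shares were 6.66% and 5.1% in normoxia and 6.56% and 4.29% in hypoxia. Neat1 was higher in hypoxia by 0.24 without IFN-γ (interval 0.19 to 0.29) and by 0.32 with it (0.28 to 0.37). Malat1 was higher by 0.22 (0.17 to 0.27) and 0.37 (0.32 to 0.42). Both were thus higher in both pairs, as were 33.9% of all genes. All 7 hosts were lower in both hypoxia pairs, as were 31.9% of all genes. Host ratios in untreated cells spanned -0.36 to -0.12, and 5 of the 7 intervals lay below 0. In cells given IFN-γ they spanned -0.28 to -0.11, and 6 of the 7 intervals lay below 0. Those of Snhg3 included 0 in both pairs and that of Snhg6 did so without IFN-γ. The share of all genes with an interval on 1 side of 0 was not counted, so these counts of intervals do not set the hosts apart.

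The low counts of the table were even more often than odd (63.2% to 64.8% of genes with 1 to 20 counts had an even count), and whether both mates of a read pair were counted was not tested. With all counts halved, the intervals of the hosts lay below 0 for 5 and 4 of 7, and those of Neat1 and Malat1 stayed above 0 in both hypoxia pairs. Here too the share over all genes was not counted.

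**Figure D3:**
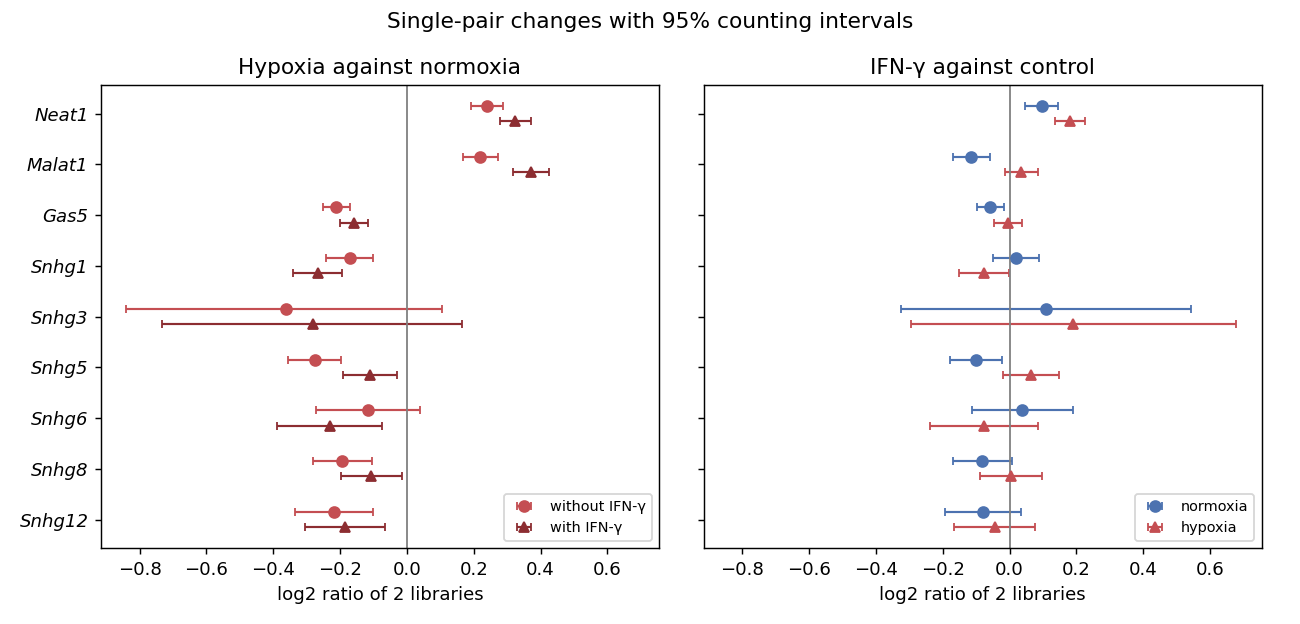
Log2 ratio of each lncRNA in the 4 single pairs of libraries, with exact 95% counting intervals as bars. In the hypoxia pairs Neat1 and Malat1 lie right of 0 and the 7 hosts left of it, and in the IFN-γ pairs most intervals include 0.

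The summed counts show the size of the contrast. The 7 hosts together held 20895 counts in untreated normoxic cells and 18046 in hypoxia, and 19984 and 17751 in the cells given IFN-γ. Neat1 and Malat1 together held 11927, 13965, 11832 and 15006 counts in the order used above. The host sum was changed by -13.5% in hypoxia without IFN-γ and by -11.1% with it, and the sum of the nuclear RNAs by 17.3% and 26.9%. The ratio of nuclear to host counts was 0.571 and 0.592 in the normoxic libraries and 0.774 and 0.845 in the hypoxic ones. This separation follows from the changes of the single lncRNAs given above and is not further evidence. Gas5 alone held 10423 of the 20895 host counts in untreated normoxic cells.

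For IFN-γ the counts were too near the share over all genes to set these RNAs apart. In the additive edgeR fit, 0 of 9 passed in either direction, against 5.86% of all genes (4.76% higher and 1.1% lower). At an unadjusted p under 0.05 the number was 1 of 9, against 14% of all genes, and by DESeq2 it was 0 of 9 on adjusted and on unadjusted p. The gene at an unadjusted p under 0.05 was Neat1, with a change of 0.14 (standard error 0.0557, edgeR Benjamini-Hochberg adjusted p = 0.152). The estimates of the 9 ran from -0.06 to 0.15, with Snhg3 highest at 0.15 and a standard error of 0.24. In Malat1 it was -0.04 and in Gas5 -0.03, both within their errors of 0.0575 and 0.0536. In 0 of 9 did the IFN-γ libraries lie apart from the controls, whereas 15.3% of all genes were higher and 15.1% lower in both IFN-γ libraries than in both controls.

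Within single pairs, counting error alone left some small differences. Neat1 was higher with IFN-γ in normoxia (0.10, interval 0.05 to 0.15) and in hypoxia (0.18, 0.14 to 0.23). Malat1 was lower with IFN-γ in normoxia (-0.11, -0.17 to -0.06) and within counting error in hypoxia (0.04, -0.01 to 0.09). Gas5 and Snhg5 were lower in normoxia (-0.06 and -0.10) and Snhg1 was lower in hypoxia (-0.08), each with an interval that excluded 0, and with counts halved those of Snhg5 and Snhg1 included it. Gas5 and Snhg12 were lower with IFN-γ in both pairs, as were 30.2% of all genes, and Neat1 and Snhg3 were higher in both, as were 25.9%. The difference between the IFN-γ change in hypoxia and that in normoxia was 0.15 for Malat1 (counting interval 0.08 to 0.23), 0.16 for Snhg5 (0.05 to 0.28) and 0.09 for Neat1 (0.02 to 0.15), and the intervals of the other 6 included 0. With counts halved that of Neat1 included 0 as well. Of the 9 lncRNAs, 0 differed by more than 0.5, against 12.9% of all genes. Over 10443 genes with at least 100 counts the central 95% of this difference ran from -0.36 to 0.40, and with 1 library per condition the difference was not tested.

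The snoRNA genes inside the hosts gave a further reading of the same loci. The RefSeq annotation places 26 snoRNA genes within the 7 hosts, 8 each in Gas5 and Snhg1, 4 in Snhg12, 2 each in Snhg3 and Snhg5, and 1 each in Snhg6 and Snhg8. The count table lists 10 of the 26, and 8 had more than 3 counts in every library. Snora73b and Snora24 had 0 counts throughout. Summed over the 8, the counts were 1004 in untreated normoxic cells, 803 in hypoxia, 931 with IFN-γ and 728 with both, so that both hypoxic libraries were lower. Snora73a alone held 422 of the 1004 counts and 310 of the 803. Without IFN-γ 7 of the 8 were lower in hypoxia, and with IFN-γ 8 of 8 were. Those 7 were thus lower in both pairs, as were 31.9% of all genes.

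Snora73a, a box H/ACA RNA needed for the maturation of ribosomal RNA, had 422, 310, 383 and 287 counts, more than its host Snhg3 in each library. Its log2 ratio in hypoxia was -0.44 without IFN-γ (interval -0.66 to -0.23) and -0.41 with it (-0.64 to -0.19), and both intervals also excluded 0 with counts halved. Snora73a and Snora73b are 96.6% identical over 205 bases and differ at 7 positions, so their split is uncertain. Snord47 in Gas5 had 83, 75, 79 and 73 counts, and Snord22 in Snhg1 had 192, 170, 160 and 150. The estimates of both were below 0 in each hypoxia pair (from -0.17 to -0.09), and their intervals included 0. In Snhg12, Snora16a had 77, 47, 73 and 53 counts, Snora61 84, 73, 90 and 66, and Snord99 85, 56, 71 and 49. Their estimates were below 0 in both hypoxia pairs, but the interval excluded 0 for Snora16a and Snord99 without IFN-γ alone, for Snora61 in neither pair, and with counts halved for 0 of these 3 genes. Snora44 in the same host had 39, 62, 58 and 36 counts and was the exception, higher in hypoxia without IFN-γ, with an interval that included 0 when counts were halved. Snord87 in Snhg6 had 22, 10, 17 and 14 counts. Selection of polyadenylated RNA removes most mature snoRNA, and reads of a snoRNA and of the host intron around it cannot be told apart here.

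**Figure D4:**
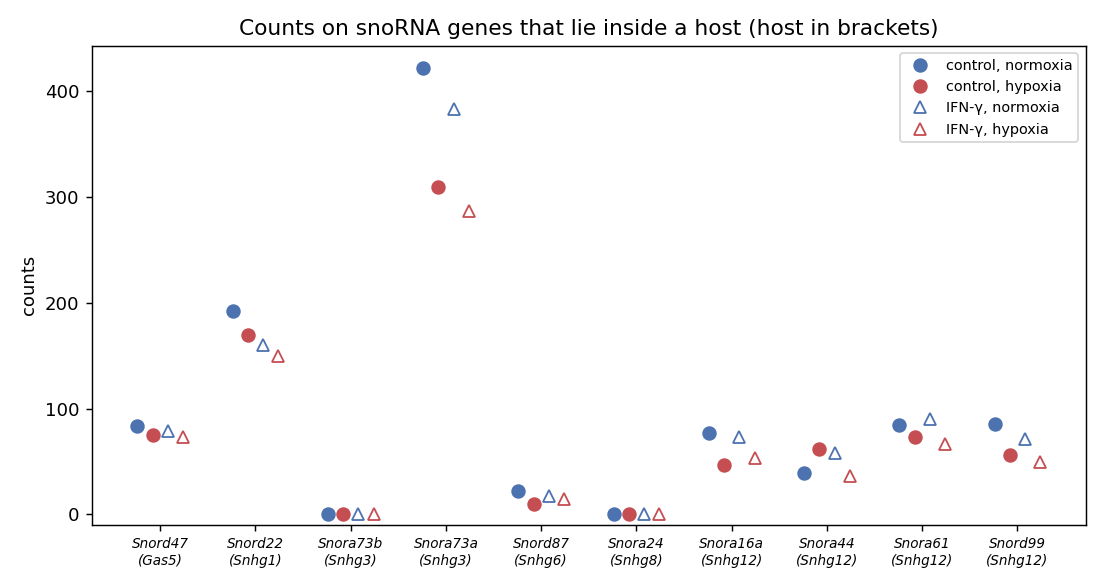
Counts on the snoRNA genes that lie inside a host, in the 4 libraries, with the host in brackets. Snora73a has the most counts (287 to 422) and is lower in both hypoxic libraries, and Snora44 is the gene whose untreated hypoxic count (62) is above its untreated normoxic count (39).

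Reads could be shared with neighbors in some loci. Gas5 overlaps Zbtb37, Snhg6 overlaps Mcmdc2, and Snhg3 shares 70.9% of its 31-base words with genes of its own locus (among them Rcc1), which makes its counts uncertain. Snhg5 shares 14.7% of its words with other places, 11.9% with 9330159M07Rik. For Neat1, Malat1, Gas5, Snhg1, Snhg6, Snhg8 and Snhg12 the share with other loci was at most 1.59%.

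Other lncRNAs that host small RNAs were set beside the 7 hosts. Of 16 such genes, 15 passed the filter on low counts (Mir17hg and Mir22hg among them host microRNAs rather than snoRNAs). In hypoxia 6 of the 15 were lower and 0 were higher, beside 6.83% and 8.21% of all genes, with a median of -0.21. Among those that passed, Dancr had the lowest estimate (617, 387, 535 and 366 counts, log2 change -0.61, edgeR Benjamini-Hochberg adjusted p = 8.83e-07), followed by Snhg15 at -0.49, and the others that passed were Mir17hg, Epb41l4aos, Snhg7 and Snhg4. With IFN-γ 0 of the 15 passed in edgeR. Of 10 other nuclear or long-lived lncRNAs, 7 could be tested and 0 passed with either stimulus, with a hypoxia median of -0.07. Norad, for example, had 12816, 12478, 12998 and 13240 counts, Tug1 had 2525, 2240, 2691 and 2610, and Meg3 and H19 had 0 in every library.

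The proteins that work with these RNAs were described in the same way. Of 18 paraspeckle proteins, 1 was lower in hypoxia, beside 6.83% of all genes (Rbmx, an RNA-binding protein, at -0.23, edgeR Benjamini-Hochberg adjusted p = 0.0296) and 0 were higher, with a median of 0.003. Of 14 nuclear speckle proteins, 2 were higher, beside 8.21% of all genes: Sf3b1, a core splicing factor, at 0.28 (edgeR Benjamini-Hochberg adjusted p = 6.84e-07), and Clk1, a kinase of splicing factors. Of 17 core and assembly proteins of the snoRNA particles, 8 were lower, beside 6.83% of all genes, and 0 were higher, with a median of -0.16. They were Shq1 at -0.36 (edgeR Benjamini-Hochberg adjusted p = 4.19e-04), an assembly factor of box H/ACA particles, and Dkc1, Nop56, Nolc1, Snu13, Nop58, Nhp2 and Ruvbl1. With IFN-γ 1 of the 17 passed, a count near the background of 5.86% of all genes. It was Nufip1, an assembly factor of box C/D particles, at 0.32 (edgeR Benjamini-Hochberg adjusted p = 3.04e-04).

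Of 15 factors of nonsense-mediated decay, the pathway that removes many host transcripts, 2 were lower in hypoxia (Dhx34 at -0.29, edgeR Benjamini-Hochberg adjusted p = 0.00333, and Eif4a3), beside 6.83% of all genes, and 0 were higher. A count of this size is near the background. With IFN-γ 1 of the 15 passed, also near the background of 5.86% of all genes. It was Smg1, the kinase of this pathway, higher at 0.20 (edgeR Benjamini-Hochberg adjusted p = 0.011). Of 16 translation factors and other genes of the TOP class, 8 were lower in hypoxia, Eif3f most (-0.21, edgeR Benjamini-Hochberg adjusted p = 0.00218), and 1 was higher (Fau at 0.16, adjusted p = 0.0147 in the same edgeR fit). Over all genes 6.83% were called lower and 8.21% higher. The median of the 16 was -0.12, and 15 of the 16 estimates were below 0, beside 48.8% of all genes. With IFN-γ 0 of the 16 passed in edgeR.

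**Figure D5:**
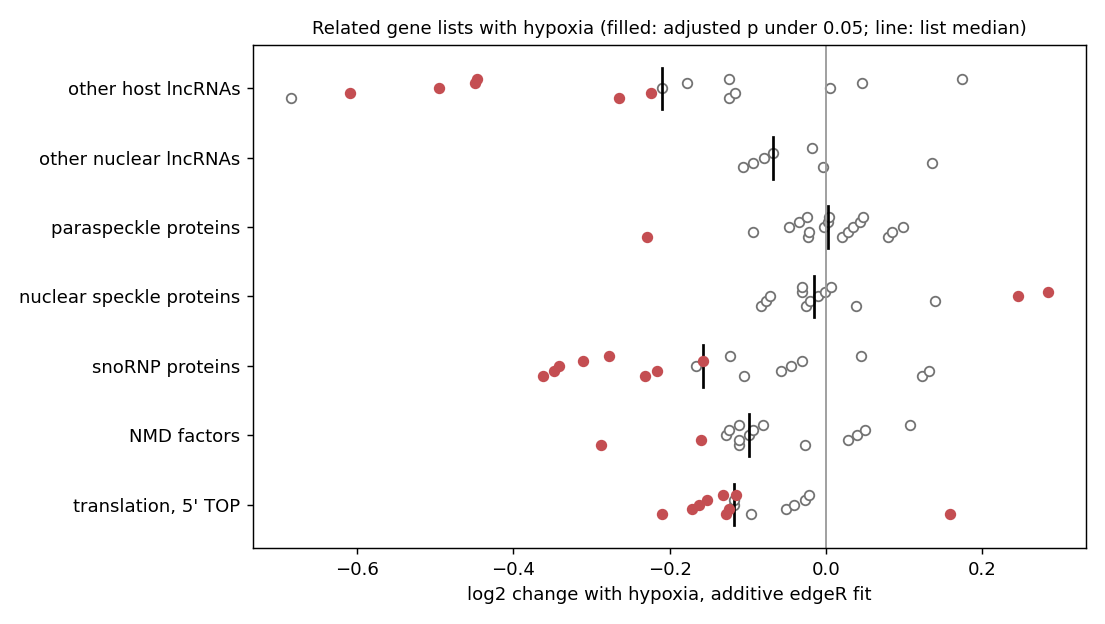
Hypoxia change (log2, additive edgeR fit) of every tested gene in the related lists, 1 point per gene, filled for an adjusted p under 0.05, with a line at each list's median. The medians lie between -0.21 (other host lncRNAs) and 0.003 (paraspeckle proteins).

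The genes most like Neat1, Malat1 and Gas5 over the 4 libraries were found by the distance between their 3 log2 ratios to the untreated normoxic library, among 10345 genes with a symbol and at least 100 counts in every library. For Neat1 they were Stx2, a membrane fusion protein (distance 0.0347), Rnf126 (0.0386) and the transcription factor Foxp1 (0.0455). For Malat1 they were Tenm3 (0.0321), the transcription factor Elf3 (0.0413) and Arid2, a subunit of a chromatin remodeler (0.0462). For Gas5 they were Mrps15, a mitochondrial ribosomal protein (0.00575), Zfp493 (0.0173) and Gss, glutathione synthetase (0.0182). With 3 ratios per gene, these likenesses are descriptions.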

How the data were processed

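RNA-seq was measured in 4 libraries of MC38 cells, 1 per condition, so no replicates entered any test and p-values rest on 1 residual degree of freedom, moderated across genes (common dispersion 0.00222). The labels describe selection of poly-A RNA, while the study's text speaks of total RNA. The authors deposited whole-number counts per NCBI gene, neither normalized nor filtered, after HISAT2 alignment. The submitters' processing notes name featureCounts and mm10, and its version and strand setting are not given in the sources used here.

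Symbols and coordinates came from RefSeq on GRCm38.p6, the build called mm10, and 25275 of 27179 gene IDs matched. Counts were tested with edgeR 4.0.16 (R 4.3.3), using TMM, the default filter (minimum of 10 counts, 13580 genes kept), an additive model and Benjamini-Hochberg adjustment at 0.05. The standard errors given were derived from this test, as the absolute log2 change divided by the square root of its F statistic. Single-pair ratios had 0.5 counts added and exact conditional (Clopper-Pearson) 95% intervals, which cover counting error only. DESeq2 1.42.0, other scalings, other filters and a model of 1 factor were alternatives. On simulated data over 13580 genes, 74 of 100 genes changed in hypoxia by a log2 of 0.5 and 93 of 100 changed by 1 were recovered, with 9 false calls among 176. For IFN-γ, 78 and 83 of 100 were recovered, with 9 false calls among 170. Recovery of changes smaller than 0.5 was not tested. The estimates of all 9 lncRNAs were smaller, from -0.32 to 0.30 in hypoxia and from -0.06 to 0.15 with IFN-γ. With 1 library per condition, the share of false calls in real cultures was not tested either.

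Named genes were all 9 lncRNAs, the check genes and markers, the snoRNA genes inside a host, for each list and stimulus the strongest called rise and fall, and 3 genes most like each of Neat1, Malat1 and Gas5. The other names were chosen after their values were seen. The lncRNAs, lists and tests were chosen with earlier results of these data known.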

Additional observations from a re-analysis of the deposited data

How the results depend on the processing

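The direction of all 9 lncRNAs in hypoxia was the same in every alternative scaling, filter and tool. No paired analysis was possible because each condition has 1 library, so the groups share fewer than 2 replicate numbers. Leaving out a library leaves the additive model with 0 residual degrees of freedom, so it gives no test. With a model of 1 factor, the lncRNAs called higher and lower in hypoxia numbered 0 and 0, against 2 and 3. With DESeq2's Wald test 0 hosts were called lower, and with a further minimum log2 change of 0.5 there were 0 and 0. By that Wald test 4 of the 9 lncRNAs had an unadjusted p under 0.05, and the share over all genes was not counted. Without the filter on low counts Snhg5 was no longer called. Over all genes, those higher in hypoxia numbered 1115, against 362 with DESeq2, 150 with 1 factor and 332 with the minimum change, and those lower 927, against 214, 26 and 46. For IFN-γ the higher genes numbered 647, against 353, 239 and 380, and the lower 149, against 16, 3 and 29. The lower genes also numbered 99 with DESeq2's size factors, 71 without a filter and 74 with at least 10 counts in every library. The cause was not tested. The additive estimates of single lncRNAs were set beside 144 values from the alternative fits and the single pairs. Of these, 125 kept direction: the fits among them kept the call, and the pairs lay within 1 standard error of the estimate. Another 9 values from fits lost the call, and 10 single-pair values lay further off or turned sign. For Malat1 the IFN-γ ratio was -0.11 in normoxia and 0.04 in hypoxia, and the hypoxia ratio 0.22 without IFN-γ and 0.37 with it. For Snhg5 these were -0.10, 0.06, -0.28 and -0.11. The IFN-γ estimates of Snhg1 and Snhg6, near 0, turned to 0.02 and 0.04 in normoxia. Of 108 single-pair values, 107 kept their sign under the other scalings and pseudocount, with moves of at most 0.03, and the IFN-γ ratio of Snhg1 in normoxia turned from 0.02 to -0.01 with total counts. Halving the counts, an alternative chosen after seeing the data, left the interval of Snhg1 with IFN-γ in hypoxia no longer below 0. The same held for Snhg5 with IFN-γ in normoxia, and for the hypoxia ratios of Snhg5 and Snhg8 in cells given IFN-γ. Scaling moved the median of all genes by under 0.1 on the log2 scale.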
